A study of Mus musculus with 12 samples.

Results

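Cytosolic ribosomal protein genes encode the protein part of the ribosome that translates nuclear mRNAs in the cytoplasm. The members were the protein-coding genes of the GENCODE vM21 annotation with a symbol made of Rpl or Rps, a number and at most 1 letter, together with Rplp0, Rplp1, Rplp2 and Rpsa. They came to 80 of the 55401 gene identifiers in the deposited table, 49 of the large ribosomal subunit and 31 of the small subunit, spread over 19 chromosomes. The ribosomal proteins Rps3a1 and Fau and the ribosome-bound scaffold Rack1 have symbols of another form and were looked at separately.

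The RNA came from B16-OVA tumours, a mouse melanoma line that makes chicken ovalbumin, which had grown in wild-type mice for 10 days when treatment began. Live cells positive for the leukocyte protein CD45 and for CD11c, an integrin chain found on dendritic cells and on many macrophages, were sorted on day 17 and sequenced as bulk total RNA, with 3 libraries in each group. The combined group had 20 Gy of radiation on day 10 with 20 mcg of a fusion protein on the same day and 10 mcg on day 14. The fusion protein group had those 2 injections without radiation, the 20 Gy group had the radiation without them, and the untreated group had neither. What the fusion protein was made of is not stated in the sources used here. Nothing in the labels says that the libraries within a group were from different mice, so the p-values measure the spread between these libraries, which may be partly technical.

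Values are normalized counts, meaning reads in a gene divided by a size factor for the library. A gene was tested if it had at least 10 normalized counts in at least 3 libraries, which 18274 genes did. Of the members, 47 of the large subunit and 31 of the small were tested, and Rpl10l and Rpl39l were left out by this filter. A log2 fold change comes from limma on log2 of the normalized count plus 1, with its standard error after the ± sign. "Rose" and "fell" are used for a gene with a Benjamini-Hochberg adjusted p under 0.05 over all tested genes.

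The transcripts that define the sort were present in every library. Itgax, which encodes CD11c, lay between 2225.9 and 9496.9 normalized counts over the 12 libraries and Ptprc, which encodes CD45, between 30924.6 and 53839.4. Depth was 14462032 to 23985496 reads in genes. Flt3, the growth factor receptor of conventional dendritic cells, had 1605.6, 856.5 and 952.9 normalized counts in combined libraries 1, 2 and 3 and 827.1, 680.7 and 242.8 in the fusion protein libraries. It had 3668.6, 3484.5 and 2620.1 in the 20 Gy libraries and 3690.3, 1776.1 and 1852.8 in the untreated libraries. The sum of 16 dendritic cell markers ranged from 113135.7 to 124617.9 in the combined group and from 70672.1 to 136359.5 in the fusion protein group, against 196207.1 to 256328.9 in the 20 Gy group and 142079.7 to 242292.0 in the untreated group. The sum of 7 monocyte markers was 19036.7 to 31615.0 in the combined group and 11728.7 to 27292.0 in the fusion protein group, against 11158.4 to 18021.6 after 20 Gy and 6869.9 to 11619.5 without treatment. The sum of 7 natural killer cell markers was 35958.8 to 40198.3 in the combined group and 32245.4 to 64538.7 in the fusion protein group, against 11671.1 to 17047.8 after 20 Gy and 20032.3 to 22569.6 without treatment. The sum of 12 markers of dividing cells was 12267.5 to 14427.6 in the combined group, 10744.1 to 22496.8 in the fusion protein group, 8370.3 to 14415.9 after 20 Gy and 6717.2 to 8626.7 without treatment. No marker of these 4 lists was at 0 in any library. The sum of 8 erythroid markers was 2497.6 to 3533.1 after 20 Gy and at most 934.6 in any other library, with up to 5 of the 8 at 0. The sum of 9 melanoma markers was 16551.8 in 20 Gy library 3 and at most 4916.6 in any other library, with up to 2 of the 9 at 0. In bulk RNA, fewer cells of a type cannot be told apart from less RNA per cell. Their part in the member values below was not tested.

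Each ribosome holds a single copy of nearly every ribosomal protein, and cells keep the proteins in step with one another and with ribosomal RNA. Their mRNAs begin with a run of pyrimidines, the terminal oligopyrimidine or TOP tract, through which the growth kinase mTORC1 controls their translation as a group. Some members also act outside the ribosome: free Rpl5 and Rpl11 bind Mdm2, the ligase that destroys p53, and Rpl13a is known from human myeloid cells as part of a complex that silences inflammatory mRNAs after interferon gamma.

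The start regions of members were compared with those of all genes in RefSeq (GRCm38.p6), where 60 of the 80 members and 27025 genes in all had a sequence of 300 bases. The hexamer CTTCCG, read on either strand and the core of the site bound by ETS-family factors, was in 68.3% of the member sequences and in 17.2% of all. Its extended form CCGGAAG, which overlaps it on the other strand, was in 40.0% against 9.1%. A run of at least 8 pyrimidines between 25 bases before and 50 bases after the start, where a TOP tract would lie, was in 76.7% against 27.1%. The YY1-type motif AAGATGGCG was in 5.0% against 1.5%. The Sp1-type motif GGGGCGGGG was in 6.7% against 11.6% and the TATA box letters TATAAA in 8.3% against 14.2%. A match describes the letters in the window and does not show that a factor binds there.

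The 80 bases around the start (60 before, 20 from the start on) are shown for the paralog pair Rps27l and Rps27 and for Rplp0, Rpl27 and Rpl37a, whose values are described below, and for Rpl3l and Rpl10l, paralogs that were nearly silent here. Capitals mark CTTCCG on either strand and runs of at least 8 pyrimidines. The windows lie at chr9:66946026-66946105 (+), chr3:90213629-90213708 (-), chr5:115559407-115559486 (+), chr11:101442185-101442264 (+), chr1:72711200-72711279 (+), chr17:24727766-24727845 (+) and chr12:66284382-66284461 (-), in the order of the lines.
Rps27l: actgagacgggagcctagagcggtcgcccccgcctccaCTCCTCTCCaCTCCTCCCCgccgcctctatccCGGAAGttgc
Rps27: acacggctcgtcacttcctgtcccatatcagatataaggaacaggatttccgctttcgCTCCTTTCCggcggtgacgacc
Rplp0: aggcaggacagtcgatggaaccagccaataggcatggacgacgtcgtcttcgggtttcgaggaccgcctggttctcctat
Rpl27: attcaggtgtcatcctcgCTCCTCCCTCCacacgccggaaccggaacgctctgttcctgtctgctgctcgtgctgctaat
Rpl37a: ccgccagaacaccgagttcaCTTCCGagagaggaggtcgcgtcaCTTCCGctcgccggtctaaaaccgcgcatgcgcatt
Rpl3l: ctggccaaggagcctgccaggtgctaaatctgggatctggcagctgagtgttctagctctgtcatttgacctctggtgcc
Rpl10l: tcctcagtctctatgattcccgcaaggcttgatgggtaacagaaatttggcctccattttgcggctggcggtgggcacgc
The Rps27 start carries a pyrimidine run across the start, and the Rps27l start carries 2 runs before it with CTTCCG on the other strand after it. The Rpl27 window has 1 run well before the RefSeq start, and the Rpl37a window holds CTTCCG at 2 places. The whole Rpl27 window lies before the gene's start in GENCODE, from which the gene coordinates below are taken. It therefore does not show the bases around that start. The windows of Rplp0, Rpl3l and Rpl10l hold neither feature.

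Most members were expressed at a high level per length. The level is given as the normalized count per kilobase of merged exons, averaged over the 12 libraries, since counts of genes of different length cannot be compared otherwise. It was above 1000 in 69 of the 80 members, with a median of 3483.6. The 5 highest were Rplp1 (21258), a protein of the acidic stalk that recruits elongation factors, then Rps23 (14178) of the decoding centre, Rpl26 (13781), Rpl19 (13716) and Rpl36 (12392). The stalk base Rplp0 stood at 11735, the stalk protein Rplp2 at 7787 and the laminin receptor Rpsa at 10725. The core proteins Rpl3, Rpl5, Rpl10 and Rpl11 lay at 4475, 3470, 4620 and 2088, and the small-subunit proteins Rps3, Rps4x, Rps6, Rps14 and Rps19 at 2494, 5828, 6203, 2161 and 1196. With the median length of a gene's protein-coding transcripts in place of its merged exons the order changed (Spearman 0.78 across members, which are not independent), and 1 of the 5 highest was shared.

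At the low end stood the paralogs that are known from testis or muscle. Rpl10l, the testis copy of Rpl10, was lowest at 1.58 normalized counts per kilobase, then Rpl39l, the testis copy of Rpl39, at 2.80 and Rpl3l, the muscle copy of Rpl3, at 6.97. Rpl10l had 2.7, 0 and 0 normalized counts in the combined libraries, 0, 0 and 6.6 in the fusion protein libraries, 6.2, 0 and 3.9 in the 20 Gy libraries and was listed at 0 in all 3 untreated libraries. Rpl39l reached at most 6.5 in any library, while Rpl39 itself had 1420 to 2110. These are a few reads in each library, so no fold change is given for Rpl10l or Rpl39l.

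Rps10 (18.0 per kilobase), Rpl24 (29.3) and Rpl13a (188) were also low, although each is a standard part of the ribosome. In the annotation they share 20.6%, 47.0% and 35.4% of their exon bases on the same strand with RPS10-NUDT3, Gm28037 and Gm45713, and all 3 of those overlapping genes were listed at 0 in every library. No other member shared more than 20% of its exon bases in this way. The part of the overlap in the low counts was not tested, so the levels of these 3 genes are uncertain. Of the members, 73 share at least 1 stretch of 100 bases with another annotated gene, mostly pseudogenes, with a median of 14.1% of such stretches, so reads can be split between copies. The 294 annotated ribosomal protein pseudogenes took 0.0152% to 0.0243% of reads.

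**Figure D1:**
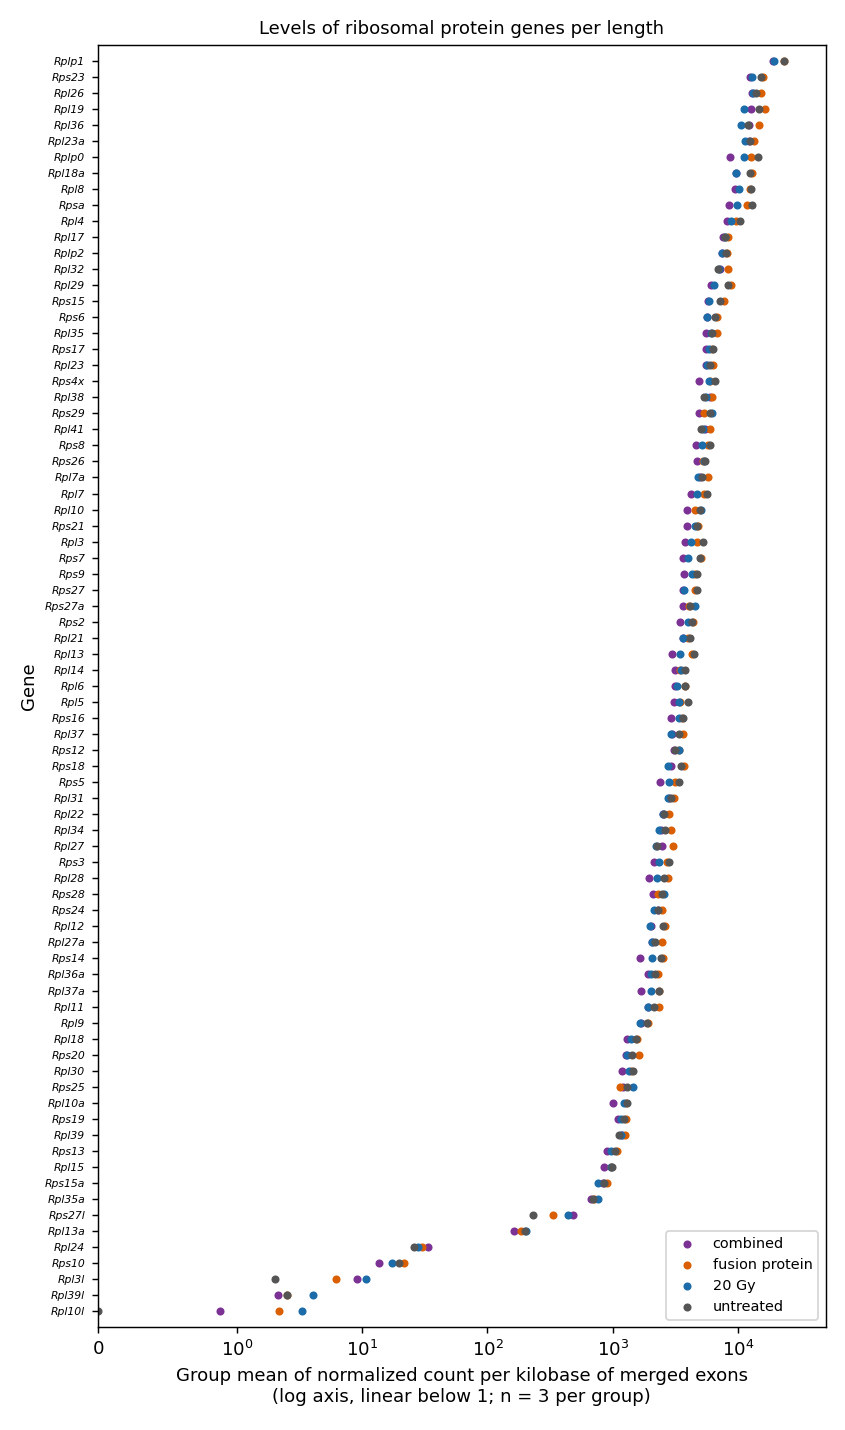
Mean normalized count per kilobase of merged exons for the ribosomal protein genes (rows, with 1 of the 80 not drawn, log axis that is linear below 1), with 1 point per group of 3 libraries. Most genes lie above 1000, while Rps27l, Rpl13a, Rpl24, Rps10, Rpl3l, Rpl39l and Rpl10l trail off at the bottom, and for Rps27l the untreated point is the lowest of the 4.

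Together the 80 genes took 2.92%, 3.43% and 2.42% of reads in combined libraries 1, 2 and 3 and 3.47%, 4.48% and 2.82% in the fusion protein libraries. They took 3.20%, 3.50% and 2.83% in the 20 Gy libraries and 3.14%, 4.48% and 3.45% in the untreated libraries. The groups overlapped. The highest and lowest library lay further apart than any pair of group means in the combined, fusion protein and untreated groups, but not after 20 Gy. The large subunit held 60.7% to 63.5% of the members' reads in every library.

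Within a group the normalized counts of the members moved up and down together. In combined library 2, 73 of the 78 tested members lay above their own group mean, against 20 in library 1 and 4 in library 3. In fusion protein library 2 it was 75, against 18 and 8 in libraries 1 and 3, and in 20 Gy library 3 it was 75, against 3 and 19 in libraries 1 and 2. In untreated library 2 it was 76, against 2 in library 1 and 47 in library 3. The median within-group SD of a member was 0.276 on the log2 scale, against 0.553 over all tested genes and 0.314 over the 3362 other genes with a mean of at least 1000. Taking the family's common shift in each library out of every gene lowered the members' median SD to 0.123 and raised that of all genes to 0.620, so the members' spread between libraries was largely shared. The share of reads and the normalized counts ranked the 20 Gy libraries differently: library 3 was lowest of the group by share and highest by normalized count, and it had the most mitochondrial reads of all libraries, at 18.6% where the others had 6.95% to 14.3%. It was also the library with the highest sum of melanoma markers, whose part in its values was not tested.

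Other properties of the libraries were set beside this shared shift. A set of 1481 genes for smell, pheromone and trace-amine receptors, which are mostly silent outside sensory tissue, was counted in each library. Of these, 64.1%, 15.3% and 44.6% had a read in combined libraries 1, 2 and 3 and 29.1%, 5.47% and 21.8% in the fusion protein libraries. The shares were 84.9%, 64.8% and 14.2% in the 20 Gy libraries and 13.9%, 5.54% and 23.6% in the untreated libraries. In every group the library with the highest normalized counts of members had the lowest share of these genes. Between the remaining libraries the relation was the reverse in the combined, fusion protein and untreated groups. There the library with the lower normalized counts of members also had the lower share. Only after 20 Gy did the share fall as the member counts rose through all libraries of the group. These relations are for normalized counts. By percentage of reads in members, library 2 was the highest in every group, and after 20 Gy it did not have the fewest silent receptor genes. The sum of 11 T cell markers, none of them at 0 in any library, was 7127.0, 19506.2 and 9261.3 in the combined libraries, 10904.5, 25460.2 and 26860.8 in the fusion protein libraries, 5084.5, 11424.2 and 12117.8 in the 20 Gy libraries and 7767.8, 31319.1 and 19563.4 in the untreated libraries. It was highest in the library with the highest normalized counts of members in all groups but the fusion protein group. The part of T cells in the shift was not tested.

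**Figure D2:**
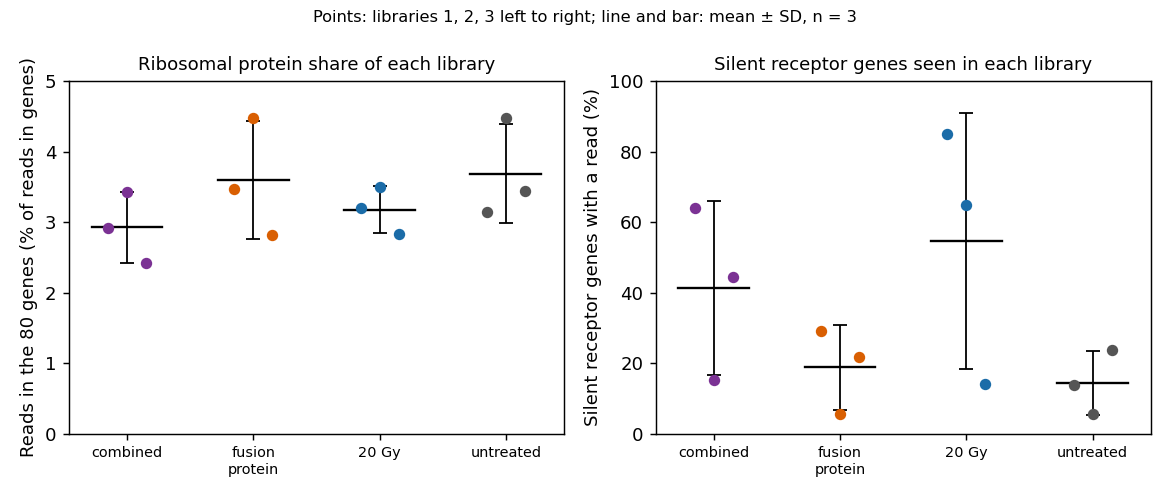
Left, reads in the 80 ribosomal protein genes as a percentage of reads in genes; right, the percentage of 1481 silent receptor genes with a read; points are libraries 1, 2 and 3 from left to right, lines are group means and bars SD (n = 3). The ribosomal protein share spans 2.42% to 4.48%, with all groups overlapping, and the library of a group with the fewest silent receptor genes is number 2 in the combined, fusion protein and untreated groups and number 3 after 20 Gy.

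**Figure D3:**
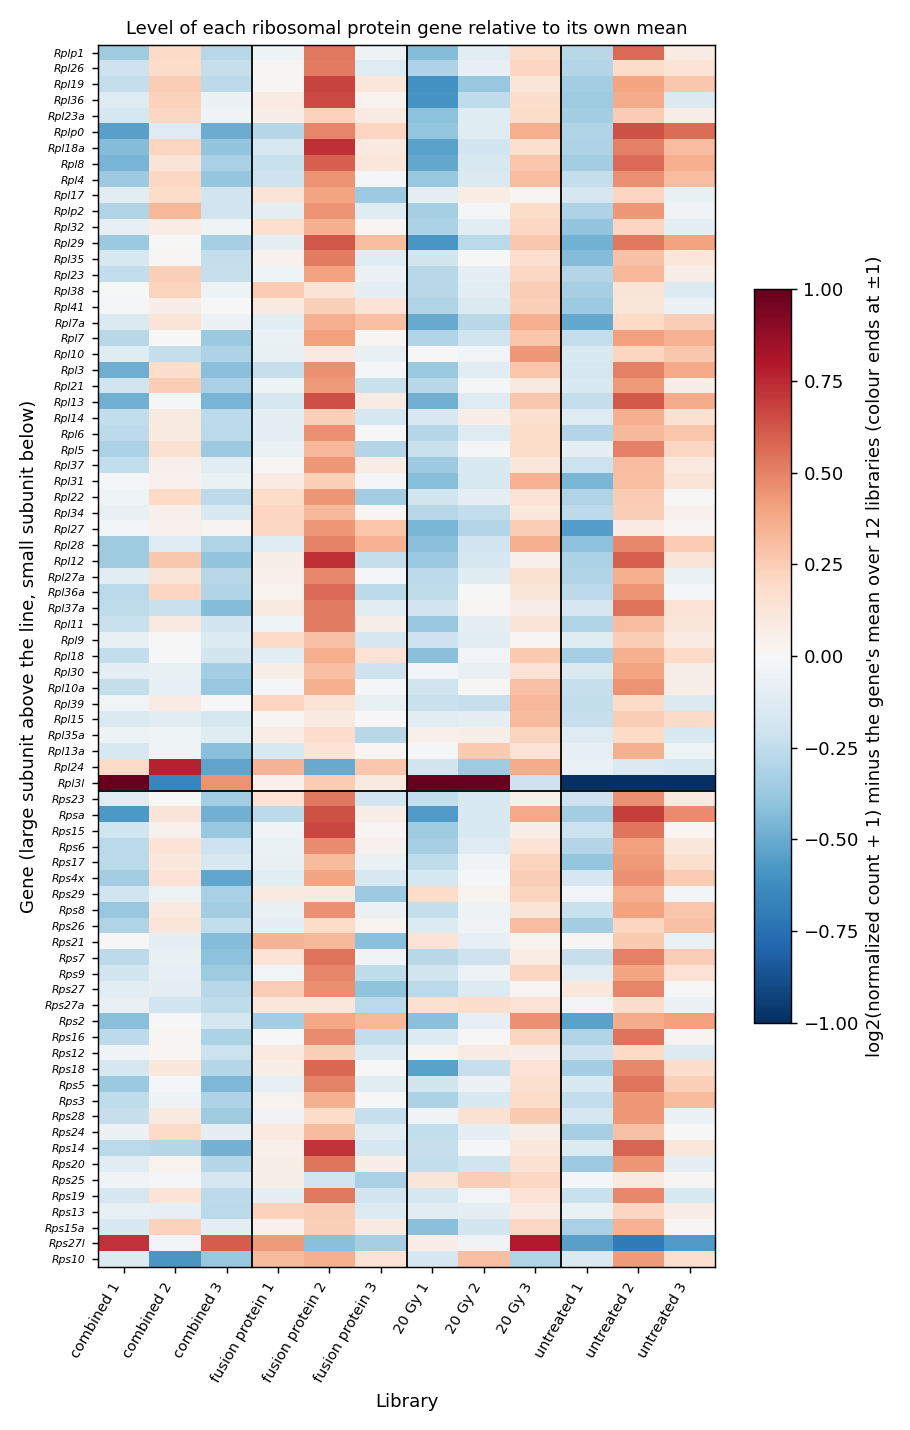
Log2 of the normalized count plus 1 of the tested ribosomal protein genes (rows, with 1 of the 78 not drawn, large subunit above the line and small subunit below) minus the gene's mean over the 12 libraries (columns); colour ends at 1 in either direction. Whole columns are red or blue together, most clearly fusion protein 2 and untreated 2 in red, while Rps27l and Rpl3l go their own way and are blue in all 3 untreated libraries.

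The combined treatment against no treatment gave the smallest adjusted p of any member, for Rps27l, which was higher, and Rplp0 and Rpl37a were lower at an unadjusted p under 0.05, but limma called none of them. In this comparison 0 of 78 members rose, where 1.21% of all tested genes did, and 0 fell, where 0.192% did. At an unadjusted p under 0.05, 2 members were higher (7.95% of all genes) and 3 lower (4.51%). edgeR also called 0 members, where it called 168 of all genes higher and 32 lower. DESeq2 called 1 member, where it called 551 of all genes higher and 204 lower. With replicate numbers added to limma as a block, 14 members were lower and 2 higher at an unadjusted p under 0.05. In that fit 4239 of all 18274 genes were under this level in either direction. The members' median log2 fold change was -0.22, with 11 of 78 higher, against 0.02 over all tested genes. It was -0.27 for the small subunit and -0.17 for the large. The median was -0.07 without untreated library 2 and -0.37 without untreated library 1, and it came to -0.03 when the share of silent receptor genes was added to the fit as a covariate, an alternative chosen after the data were seen. That share also differed between the groups, so the covariate can take up part of a treatment difference.

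Rps27l stood apart from the other members. It encodes a close copy of the small-subunit protein Rps27 and is known as a target gene of p53, and it lies on chromosome 9 (66946086 to 66949516, GRCm38). It had 471, 279 and 434 normalized counts in the combined libraries, 383, 213 and 225 in the fusion protein libraries, 298, 278 and 493 in the 20 Gy libraries and 195, 175 and 191 in the untreated libraries. All 9 libraries of treated mice lay above all 3 untreated libraries, and the treated groups overlapped one another. The means were 395 ± 102, 274 ± 95 and 356 ± 119 in the combined, fusion protein and 20 Gy groups and 187 ± 11 in the untreated group (SD, n = 3 each).

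The log2 fold change of Rps27l for combined against untreated was 1.04 ± 0.31 (95% interval 0.37 to 1.71), with a limma adjusted p of 0.158. When replicate numbers were added to limma as a block, it was 0.0256, in a fit that called 958 genes higher and 455 lower over all, and 0.0396 in DESeq2. Over the 24 alternatives the fold change stayed between 0.90 and 1.27 and the adjusted p between 0.0256 and 0.531. Against the rest of the family, after taking out the shared shift, the fold change was 1.25 ± 0.38 for which limma gave an adjusted p of 0.211, or 0.0081 under the block. For 20 Gy against untreated the fold change of Rps27l was 0.88 ± 0.31 (limma adjusted p 0.721) and for the fusion protein against untreated 0.50 ± 0.31 (0.795). For combined against fusion protein it was 0.54 ± 0.31, and for combined against 20 Gy it was 0.16 with an interval of -0.51 to 0.83.

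Its partner Rps27, on chromosome 3 (90212522 to 90213651), had 3962, 3973 and 3510 normalized counts in the combined libraries and 5041, 5871 and 3219 in the fusion protein libraries. It had 3526, 3870 and 4287 in the 20 Gy libraries and 4584, 5970 and 4238 in the untreated libraries. The combined libraries all lay below the untreated ones, and the fold change was -0.36 with an interval of -0.85 to 0.13. Per 100 normalized counts of Rps27 there were 10.4 ± 3.0 of Rps27l in the combined group, 6.07 ± 2.14 in the fusion protein group, 9.05 ± 2.23 after 20 Gy and 3.90 ± 0.85 without treatment (SD, n = 3 each). In the 100-base comparison Rps27l shared no stretch with another gene.

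Rplp0, the stalk base of the large subunit, was the lowest of the members in the combined group relative to untreated. It lies on chromosome 5 (115559467 to 115563727). It had 12802, 17097 and 13259 normalized counts in the combined libraries, 15377, 26178 and 21678 in the fusion protein libraries, 14323, 17197 and 23980 in the 20 Gy libraries and 15209, 29010 and 27500 in the untreated libraries. The combined and untreated groups overlapped through untreated library 1. The log2 fold change for combined against untreated was -0.69 ± 0.30, for which limma gave an adjusted p of 0.379, or 0.0475 under the replicate block. Relative to the family it was -0.48 ± 0.20, for which limma gave an adjusted p of 0.426, or 0.0462 under the block. For the other stalk proteins the fold changes were -0.27 for Rplp1 (interval -0.86 to 0.32) and -0.08 for Rplp2 (-0.66 to 0.49), and the difference from Rplp0 was not tested.

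Rpl37a, a zinc-binding protein of the large subunit, had 2430, 2485 and 2143 normalized counts in the combined libraries and 2574, 4219 and 3195 in the untreated libraries. The combined and untreated groups did not overlap. The log2 fold change was -0.47 ± 0.21, with a limma adjusted p of 0.391. Rps14 followed at -0.53 ± 0.25 (limma adjusted p 0.419), and on the other side Rpl38 stood at 0.17 ± 0.19 and Rpl27 at 0.17 ± 0.22. In all, 7 members were lower in every combined library than in any untreated library (among them Rpl37a, Rps13, Rps14, Rps27, Rps27a and Rps29), where 7.52% of all tested genes were, and 2 were higher (Rps27l and Rpl3l), where 10.3% were.

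**Figure D4:**
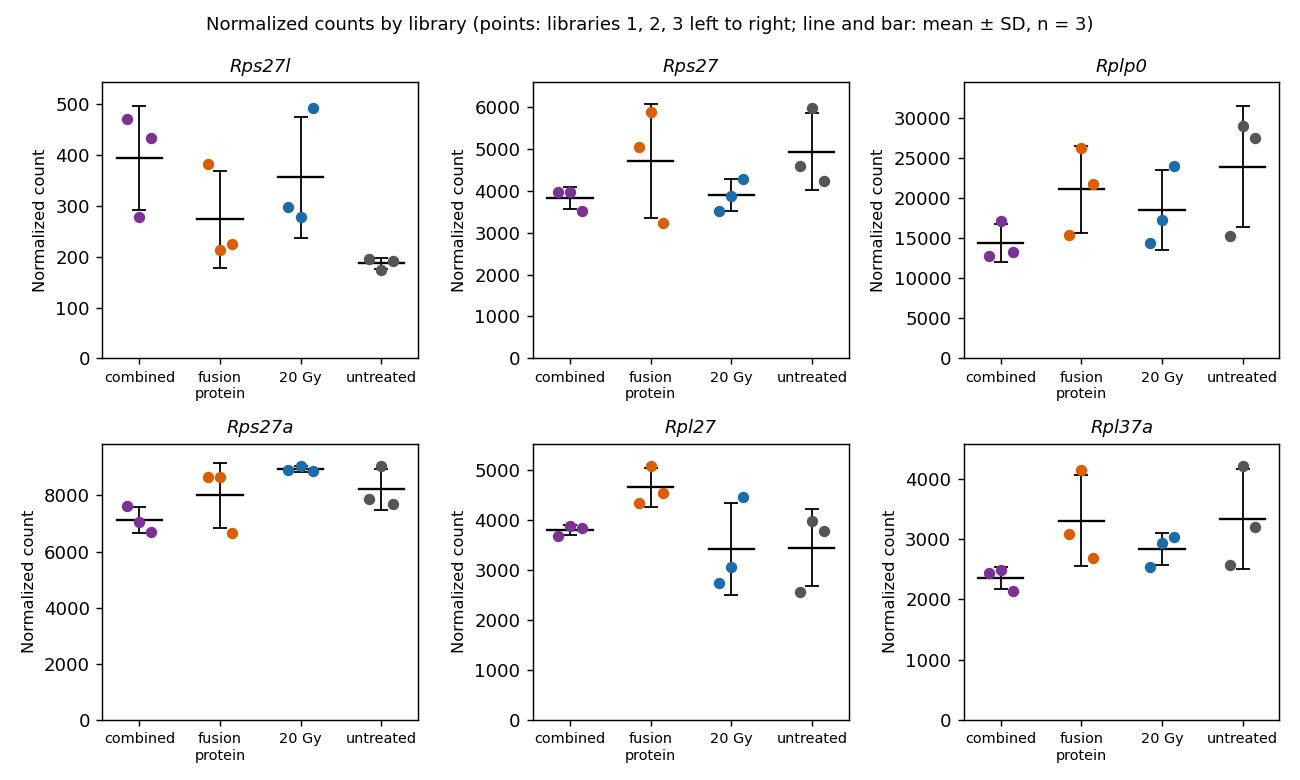
Normalized counts of 6 ribosomal protein genes in the 12 libraries (points, libraries 1, 2 and 3 from left to right; lines and bars, group mean and SD, n = 3). Rps27l is lowest in the untreated group, at 175 to 195, Rpl27 lies at 4339 to 5086 in the fusion protein group, above all 3 untreated libraries, and Rpl37a is lowest in the combined group.

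The members with known roles that are given here had intervals that included 0 for combined against untreated. On the same list Rplp0 (-1.35 to -0.02), Rps27l (0.37 to 1.71) and Rpl3l (0.27 to 3.05) had intervals that did not. Rpl5 and Rpl11, which bind Mdm2, stood at -0.38 (interval -0.89 to 0.13) and -0.15 (-0.63 to 0.33). Rpl13a stood at -0.28 (-0.70 to 0.14) and Rpl22, which is needed for the development of alpha-beta T cells in mice, at -0.02 (-0.53 to 0.49). Rps3, which has a DNA repair activity, stood at -0.37 (-0.85 to 0.10) and Rps6, the substrate of the S6 kinases, at -0.19 (-0.69 to 0.31). Rpl38, which is needed for translation of a set of Hox mRNAs in the mouse embryo, stood at 0.17 (-0.24 to 0.58), and Rps19, the gene most often mutated in human Diamond-Blackfan anaemia, at -0.13 (-0.66 to 0.40). Rpsa stood at -0.58 (-1.36 to 0.20), Rpl3 at -0.48 (-1.08 to 0.12), Rps4x at -0.42 (-0.96 to 0.11) and Rpl10 at -0.33 (-0.73 to 0.07). The short proteins Rpl39 and Rpl41 stood at 0.08 (-0.33 to 0.50) and 0.11 (-0.28 to 0.51), and Rps27a, a fusion of ubiquitin and a ribosomal protein, at -0.20 (-0.55 to 0.14). The interval lay within 1 log2 unit of 0 in 66 of the 78 members.

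Rpl3l was the other member above untreated in every group, at very low counts. It had 26.1, 5.5 and 12.9 normalized counts in the combined libraries, 9.5, 11.1 and 9.9 in the fusion protein libraries, 21.1, 23.6 and 7.9 in the 20 Gy libraries and 3.0, 3.7 and 3.1 in the untreated libraries. All libraries in which Rpl3l reached the 10 normalized counts of the filter were from treated groups. It was thus tested only because it was higher there, and its comparisons with untreated are no independent evidence of a rise. The same holds for its place in the counts of members above untreated. The highest values were in the libraries with the most silent receptor genes, combined 1 and 20 Gy 1 and 2. Its log2 fold change was 1.66 ± 0.63 for combined, 1.98 ± 0.63 for 20 Gy and 1.39 ± 0.63 for the fusion protein, each against untreated, with limma adjusted p of 0.302, 0.707 and 0.596.

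The fusion protein alone against no treatment gave member levels close to the untreated ones. The median log2 fold change was 0.04, with 49 of 78 higher, against -0.01 over all tested genes, and it was -0.02 with total-count scaling and -0.12 without untreated library 1. Here 0 members rose, where 0.586% of all genes did, and 0 fell, where 0.159% did. At an unadjusted p under 0.05 there were 0 members by limma, against 4.81% of all genes higher and 3.6% lower, and 1 by edgeR and 1 by DESeq2, neither of which called a member after adjustment. Of all genes, 1539 were under that level by edgeR and 1878 by DESeq2, in either direction. The 95% interval lay within 1 log2 unit of 0 in 75 of 78 members.

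Rpl27 was the most clearly higher member of the standard set with the fusion protein. This large-subunit protein is encoded on chromosome 11 (101442298 to 101445529). It had 4339, 5086 and 4546 normalized counts in the fusion protein libraries and 2563, 3979 and 3788 in the untreated libraries, so the groups did not overlap. The fold change was 0.46 ± 0.22 (limma adjusted p 0.616). With Rpl3l and Rps27l it made 3 members that were higher in every fusion protein library, where 5.94% of all genes were, and 0 were lower throughout, where 4.7% were. Of the next members by p, Rpl41 stood at 0.26 ± 0.18, Rpl5 at -0.21 ± 0.23, Rps25 at -0.18 ± 0.14, Rps29 at -0.16 ± 0.18 and Rpl14 at -0.14 ± 0.19.

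For 20 Gy alone against no treatment, 0 members rose and 0 fell by limma, as did 0.0% of all tested genes in either direction. At an unadjusted p under 0.05, 2 members were higher, Rpl3l and Rps27l (4.82% of all genes), and 0 lower (1.92%). edgeR and DESeq2 also called 0 members, and each had the same number higher at an unadjusted p under 0.05. Under that level, in either direction, were 1114 of all genes by edgeR and 1474 by DESeq2. The members' median was -0.11, with 16 of 78 higher, against 0.04 over all genes. It was 0.02 without untreated library 2, and 0.18 with 70 of 78 higher when the share of silent receptor genes, a covariate chosen after the data were seen, was in the fit. That share was 84.9%, 64.8% and 14.2% in the 20 Gy libraries and 13.9%, 5.54% and 23.6% in the untreated ones. The covariate can therefore take up part of the difference between these groups.

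Rps25, a small-subunit protein that viral internal ribosome entry sites need, was 1 of 3 members higher in every 20 Gy library than in any untreated one, where 6.73% of genes were. It had 3728, 4061 and 3958 normalized counts in the 20 Gy libraries and 3374, 3662 and 3459 in the untreated libraries, a fold change of 0.16 ± 0.14. The other members were Rpl3l and Rps27l, and 0 were lower throughout, where 4.79% of genes were. Among the lower members, Rpl19 stood at -0.39 ± 0.28, Rpl13 at -0.36 ± 0.29, Rps27 at -0.33 ± 0.22 and Rps7 at -0.31 ± 0.22, and Rpl35a stood at 0.14 ± 0.16 among the higher.

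Adding the fusion protein to radiation, combined against 20 Gy, gave 0 members that rose, where 0.843% of all tested genes did, and 0 that fell, where 0.186% did. At an unadjusted p under 0.05 there were 0 members by limma and by edgeR and 1 lower by DESeq2, none of them called after adjustment, against 4.41% of all genes higher and 4.59% lower by limma. By edgeR 1562 of all genes and by DESeq2 1921 were under that level in either direction. With the replicate block limma had 4 members lower at that level, where 3072 of all 18274 genes were under it in either direction. The median was -0.08, with 22 of 78 higher, against -0.02 over all genes. It was 0.07 with TMM scaling and 0.05 without 20 Gy library 3. TMM scaling also moved the median of all genes by more than 0.1 in this comparison, to 0.13, and relative to it the members' median was -0.07 with either scaling.

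In this comparison 11 members were lower in every combined library than in any 20 Gy library, where 9.55% of genes were, and 0 were higher, where 8.36% were. Among them were Rpl10, Rpl13a, Rpl30, Rpl35a, Rpl37a, Rps12, Rps14, Rps25, Rps27a and Rps29. Rps27a had 7621, 7035 and 6710 normalized counts in the combined libraries and 8923, 9039 and 8856 in the 20 Gy libraries, with a fold change of -0.33 ± 0.16 (limma adjusted p 0.583). Rpl10, the late-joining protein near the catalytic centre, had 8646, 7944 and 7594 against 9347, 9186 and 12684, a fold change of -0.35 ± 0.18. Rps29 stood at -0.34 ± 0.18 and Rps25 at -0.26 ± 0.14. On the other side Rpl36 stood at 0.24 ± 0.26, Rpl19 at 0.20 ± 0.28, Rpl27 at 0.18 ± 0.22 and Rps15a at 0.12 ± 0.21.

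Adding radiation to the fusion protein, combined against fusion protein, gave a family median of -0.26, with 4 of 78 members higher, against 0.03 over all tested genes. By limma 0 members rose and 0 fell, as did 0.0% of all genes in either direction. At an unadjusted p under 0.05, 0 members were higher (1.92% of all genes) and 1 lower (1.01%), Rpl37a, with 2 lower by edgeR and 4 by DESeq2, none called after adjustment. By edgeR 493 of all genes and by DESeq2 713 were under that level in either direction. With the replicate block limma had 11 members lower and 1 higher at that level, where 1880 of all 18274 genes were under it in either direction. None of these members was called after adjustment. The median was -0.11 without fusion protein library 2 and -0.09 with the receptor gene covariate. The members above 0 were Rps27l at 0.54 ± 0.31, Rpl3l at 0.27 ± 0.63, Rpl24 at 0.11 ± 0.44 and Rps25 at 0.08 ± 0.14.

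Here 13 members were lower in every combined library than in any fusion protein library, where 3.81% of all genes were, and 0 were higher, where 4.48% were. Among them were Rpl10, Rpl10a, Rpl15, Rpl27, Rpl28, Rpl37a, Rpl41, Rps3, Rps7, Rps10, Rps14 and Rps20. Rpl37a had 2430, 2485 and 2143 normalized counts in the combined libraries and 3079, 4150 and 2690 in the fusion protein libraries, a fold change of -0.47 ± 0.21. Rps14 stood at -0.54 ± 0.25 and Rps7 at -0.46 ± 0.22, each with a limma adjusted p of 0.9997. The members shift together between libraries, so these 13 genes are not independent of one another.

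**Figure D5:**
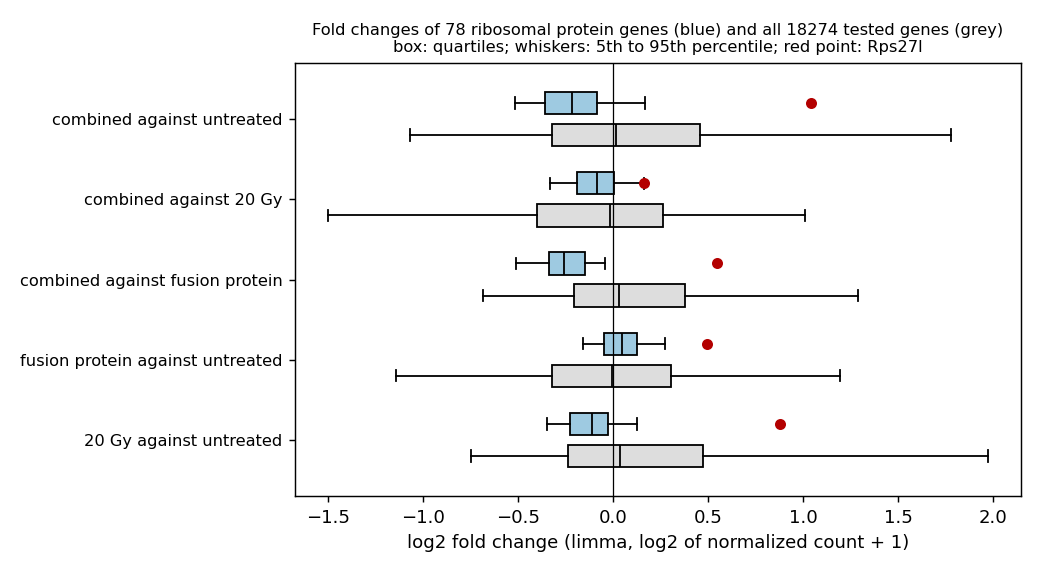
Limma log2 fold changes of the 78 tested ribosomal protein genes (blue) and of all 18274 tested genes (grey) in 5 comparisons; boxes span the quartiles, whiskers the 5th to 95th percentile, and the red point is Rps27l. The blue boxes are narrow, with medians from -0.26 to 0.04, and Rps27l lies beyond the blue whisker in the 3 comparisons with untreated cells and in combined against fusion protein.

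The difference between the effect of the fusion protein with and without radiation was tested as an interaction. By limma 0 members passed in either direction, as did 0.0% of all genes, and at an unadjusted p under 0.05 there were also 0 members, by edgeR and DESeq2 too, where limma had 0.241% of all genes higher and 0.788% lower. The median was -0.13, with 6 of 78 above 0, against 0.00 over all genes. It was 0.04 without untreated library 1. The members of smallest p were Rpl3l at -1.71 ± 0.90, Rps27a at -0.29 ± 0.22, Rps12 at -0.25 ± 0.23 and Rpl13a at -0.26 ± 0.27 on the lower side and Rps27 at 0.07 ± 0.32, Rpl5 at 0.06 ± 0.33, Rpl21 at 0.04 ± 0.33 and Rpl19 at 0.04 ± 0.39 on the other.

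After the family's shared shift was taken out, limma again called 0 members in all 6 comparisons. Over all genes it then called 0.274% higher and 0.0657% lower with the fusion protein against untreated, 1.01% and 0.0493% for combined against untreated, 0.64% and 0.0657% for combined against 20 Gy, and 0.0% in either direction in the other comparisons. Besides Rps27l, Rplp0 and Rpl3l, the members of smallest p were Rpl27 with the fusion protein at 0.40 ± 0.18 (limma adjusted p 0.806), Rpl38 at 0.38 ± 0.18 and Rpl13 at -0.36 ± 0.18 for combined against untreated (0.488 and 0.542), and Rpl36 at 0.32 ± 0.17 for combined against 20 Gy (0.862). Within the groups Rpl10a followed the family most closely, with a within-group SD of 0.0446 around the shared shift on the log2 scale. Then came Rpl27a at 0.0484 and Rps7 at 0.0583. Rpl3l at 0.783, Rps27l at 0.482 and Rpl24 at 0.480 followed the family least. This SD leaves out differences between the groups.

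Other genes of ribosome production and translation were read from lists chosen for function. The 77 tested mitochondrial ribosomal proteins, which build the separate ribosome of mitochondria, had a median of 0.27 with the fusion protein against untreated (64 higher) and of 0.27 for combined against untreated (61 higher), where the cytosolic members had 0.04 and -0.22. The median was 0.04 for 20 Gy against untreated and 0.16 for combined against 20 Gy, and 0 of these genes passed the limma threshold in any comparison. edgeR also called 0. With the replicate block limma called 1 higher for the fusion protein and 6 higher for combined, each against untreated. It called 2 higher for combined against 20 Gy. Over all genes the block called 416, 958 and 516 higher in these comparisons. DESeq2 called 2, 4 and 3 mitochondrial ribosomal protein genes there, where it called 321, 551 and 335 of all genes higher. Mrpl30 had the smallest p with the fusion protein, with 981.7, 752.7 and 823.4 normalized counts in the combined libraries, 982.6, 815.5 and 997.6 in the fusion protein libraries, 451.4, 552.9 and 526.1 in the 20 Gy libraries and 417.1, 577.9 and 487.2 in the untreated libraries. Its fold change with the fusion protein was 0.92 ± 0.18 (limma adjusted p 0.0502, or 0.0137 with the block), and for combined against untreated it was 0.79 ± 0.18 (0.0713, or 0.0194 with the block).

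Of 21 translation factors and other genes with TOP mRNAs, 0 passed in any comparison, and their median for combined against untreated was -0.20, near the members' own, with 5 of 21 higher. Eif3f at -0.69 ± 0.27, Eif4b at -0.64 ± 0.22 and Eef1b2 at -0.43 ± 0.18 had the smallest p, and limma with the replicate block called Eif3f and Eif4b (adjusted p 0.0422 and 0.0269). Rack1 had 7634, 9211 and 7303 normalized counts in the combined libraries and 7966, 13122 and 12280 in the untreated libraries, a fold change of -0.44 ± 0.24. Of 41 ribosome assembly factors, 15 genes of RNA polymerase I and its cofactors and 19 genes of the mTORC1 and Myc pathways, 0 passed in any comparison by limma or edgeR. With the block limma called the polymerase I cofactor Tcof1 higher for the fusion protein and for combined, each against untreated (adjusted p 0.0114 and 0.0357). In the mTORC1 and Myc list it then called the mTOR inhibitor Deptor lower with the fusion protein (0.0129), and for combined against untreated Rptor and Eif4ebp2 lower and Max higher (0.0105, 0.0327 and 0.0292). For combined against 20 Gy limma with the block called Tcof1 and Max higher and Deptor lower (adjusted p 0.00332, 0.0111 and 0.00899). The replicate numbers were not taken to pair the samples in that comparison. DESeq2 called Deptor lower with the fusion protein and for combined against 20 Gy, and Tcof1 higher for combined against 20 Gy. After 20 Gy 0 of the 15 polymerase I genes were higher than in untreated cells, with a median of -0.20, and 7 of the 41 assembly factors were, with a median of -0.15.

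Among 8 host genes of small nucleolar RNAs, which guide the modification of ribosomal RNA, Zfas1 rose in 3 comparisons. It had 586.1, 361.8 and 612.0 normalized counts in the combined libraries, 516.1, 362.7 and 364.8 in the fusion protein libraries, 220.9, 211.1 and 244.7 in the 20 Gy libraries and 171.5, 186.0 and 157.2 in the untreated libraries. Every library that received the fusion protein lay above every library that did not. The log2 fold change was 1.56 ± 0.24 for combined against untreated (limma adjusted p 0.0075), 1.25 ± 0.24 for the fusion protein against untreated (0.0414) and 1.17 ± 0.24 for combined against 20 Gy (0.0461). These calls held in 21, 9 and 9 of 24 alternatives each, with the same direction in all. The first was lost without combined library 1 or 3 and in the fit to the compared libraries alone. The others held in 2 of 12 when each library was left out in turn, without combined library 2 in both, without 20 Gy library 3 for the fusion protein and without fusion protein library 1 for combined against 20 Gy, and their adjusted p reached 0.244 and 0.254.

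In the integrated stress response list, 1 of 13 tested genes passed in limma, edgeR and DESeq2, Eif2ak2, the interferon-induced kinase PKR that stops translation by phosphorylating eIF2 alpha. It had 5010.9, 3570.6 and 4428.7 normalized counts in the combined libraries, 4348.1, 2288.4 and 3221.4 in the fusion protein libraries, 1242.5, 1103.6 and 1450.1 in the 20 Gy libraries and 1206.4, 757.6 and 889.7 in the untreated libraries. It rose by 2.20 ± 0.26 for combined against untreated (limma adjusted p 0.00126), by 1.77 ± 0.26 for the fusion protein against untreated (0.00926) and by 1.77 ± 0.26 for combined against 20 Gy (0.00569). The calls held in 24, 22 and 24 of 24 alternatives each; the one for the fusion protein was lost without untreated library 2 and in the fit to the compared libraries alone, where its adjusted p was 0.118. With the replicate block limma also called the stress factor Ddit3 higher for the fusion protein and for combined, each against untreated (adjusted p 0.0336 and 0.025), and Eif2ak3, the kinase PERK, lower for combined (0.0409). Ddit3 was called higher for combined against 20 Gy as well (limma adjusted p 0.00122 with the block).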

How the data were processed

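Reads were checked with FastQC, trimmed with Trimmomatic, aligned with STAR to mm10, counted in genes with featureCounts and normalized with DESeq2, per the submitters' processing notes; the sources used here give no versions or settings. The kit was the SMARTer Pico v2 for stranded total RNA, with paired reads of 100 bases, per the labels. The deposited values are a normalized signal (DESeq2-normalized counts) for 55401 identifiers in 12 libraries, which the authors made by dividing each library by a size factor. Multiplying back gave whole reads within 0.001 in 100.0% of values (largest deviation 1.4e-08), so edgeR and DESeq2 could be run on recovered reads. Symbols and coordinates from GENCODE vM21 matched 55141 identifiers (99.53%).

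Log2 of the normalized count plus 1 was fitted with limma 3.58.1 in R 4.3.3 with a variance trend, all 12 samples in 4 groups, for genes with at least 10 normalized counts in at least 3 libraries. Every test was two-sided, with Benjamini-Hochberg adjustment over 18274 genes and a threshold of 0.05. A second fit subtracted the median of the centred members from each library. Alternatives were pseudocounts of 0.5 and 5, no filter, a filter at 50, TMM and total-count scalings, edgeR 4.0.16, DESeq2 1.42.0, the replicate number as a block, only the compared libraries, and leaving out each library. The limma fit was also run on simulated counts that varied independently between genes. Those held no shift shared by a family, so they do not show how the fit behaves with one. Tables were made with Python 3.11.15, pandas 2.3.3 and SciPy 1.17.1.

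Deviations from group means of libraries with the same number correlated at 0.473 to 0.621 for fusion protein against untreated. The range was 0.334 to 0.389 for combined against untreated and 0.41 to 0.484 for combined against fusion protein. Libraries of different numbers reached at most 0.088 there, so the numbers were taken to pair the samples in these comparisons. Deviations cancel out within a group, so high values for the same number push those for other numbers down. The low values are therefore no separate evidence of pairing. For 20 Gy against untreated the range was 0.156 to 0.496. There 20 Gy library 2 correlated more with an untreated library of another number, at 0.351. For combined against 20 Gy it was 0.01 to 0.505. The numbers were not taken to pair the samples in those cases. The main fit left any pairing out, and the replicate block was an alternative. What a replicate number means is not in the labels. Members named are, in each comparison, the 4 higher and 4 lower of smallest p, up to 3 each way relative to the family, the 5 highest and lowest per kilobase, those left out by the filter, and a list of members with known roles; others are named where they make up a count given, or were chosen after their values were seen. The members and lists were chosen with earlier results of these data known. Some genes that this rule would name are not reported here.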

Additional observations from a re-analysis of the deposited data

How the results depend on the processing

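Of 376 recomputed counts and medians, 372 kept their value within the library SD of the members' mean level (0.231 on the log2 scale) or within 1.5 times. The others were the 20 Gy median, 0.182 with the receptor gene share as a covariate, and the members called for combined against untreated, 1 with DESeq2 and 2 with the replicate block, also 2 with the block relative to the family; the cause was not tested. The block changed no other call of a member. The margin of 0.231 was wider than the median itself in every comparison except combined against fusion protein (-0.257). A median that changed sign could therefore count as kept. The main fits called 0 members in every comparison, so a count was kept wherever an alternative also called 0. The number kept is thus no measure of how stable the small medians were. Of 48 results for single members, 11 changed sign under some alternative and 2 passed the threshold under one, Rps27l and Rplp0. Leaving out each library in turn gave medians of -0.124 to 0.207 for the fusion protein, -0.28 to 0.016 for 20 Gy, -0.369 to -0.066 for combined against untreated, -0.193 to 0.045 for combined against 20 Gy, -0.34 to -0.108 for combined against fusion protein and -0.258 to 0.043 for the interaction. TMM scaling put the median of all genes at -0.08 for 20 Gy (0.036 as deposited), 0.134 for combined against 20 Gy (-0.017) and 0.123 for the interaction (0.00), and relative to it the members' medians were -0.151, -0.065 and -0.124, against -0.15, -0.067 and -0.125. Over all genes, limma called 107 higher and 29 lower with the fusion protein, DESeq2 321 and 143, the block 416 and 186, and the fit to the compared libraries alone 17 and 1. For combined against untreated these were 221 and 35, 551 and 204, 958 and 455, and 139 and 10. For combined against 20 Gy limma called 154 and 34, DESeq2 335 and 215, and the block 516 and 318. For 20 Gy limma called 0 and 0, DESeq2 41 and 4, and the block 57 and 13. With 3 libraries a group the median 95% interval of a member reached 0.50 log2 units to either side, so smaller differences mostly had intervals that included 0. These intervals are not adjusted for the number of genes, and passing the adjusted threshold took more. Rps27l at 1.04 and Rplp0 at -0.69 for combined against untreated were not called by limma. The fit to the compared libraries alone was not run for the interaction, which uses all groups.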
